A study of Mus musculus with 3 samples.

Results

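Voltage-gated sodium channels carry the current that starts and propagates the action potential in neurons. Each channel has 1 large alpha subunit, which forms the pore and opens and closes with voltage, and small beta subunits, which have a single membrane span and an immunoglobulin-like outer domain and adjust gating, surface level and cell adhesion. Many antiepileptic drugs, lamotrigine among them, bind the alpha subunit and hold the channel in an inactivated state.

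The genes described here are 8 sodium channel subunits, chosen by name as targets of lamotrigine, out of 22328 genes on the array. They are the alpha subunits Scn1a, Scn2a1 (current symbol Scn2a), Scn3a, Scn8a and Scn9a and the beta subunits Scn2b, Scn3b and Scn4b. All probes that carry one of these names in the scanner files were used, 17 of 55681 probes, of which 14 belong to the alpha and 3 to the beta subunits.

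The RNA came from primary cultures of cerebral cells, taken from C57BL6/J mice at embryonic day 18 and grown in a serum-free neuronal medium. Treatment began on day 10 in vitro and lasted 24 h. The cultures received 1 mM valproate with 0.1% DMSO, 100 µM lamotrigine with 0.1% DMSO, or 0.1% DMSO alone, so the solvent was common to all 3. Valproate is an antiepileptic drug and an inhibitor of class I histone deacetylases, and the doses of the drugs differ. There was 1 array per treatment, so no difference has a replicate check and no p-value is given. How many embryos or dishes each RNA sample pooled is not stated.

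Levels are scaled signals, in which 100 is the 75th percentile of the array's non-control spots. The DMSO array had the lowest such percentile, at an intensity of 372, beside 388 with lamotrigine and 478 with valproate. A second scale, which equalises RNA controls spiked into each sample, raised the median log2 difference of all genes by 0.35 for valproate against DMSO and by 0.20 for lamotrigine against DMSO. Differences smaller than these shifts can turn sign on it, and the subunits that did are named beside their values. The 13 neuron markers checked were detected on every array, as were the 6 excitatory and 9 inhibitory neuron markers, the 9 astrocyte markers and the 5 fibroblast markers. The oligodendrocyte lineage markers numbered 10, with 9 detected on the valproate array and 10 on the others. Of 5 microglia markers 2 were detected on each array, and Cx3cr1, Tyrobp and P2ry12 were not detected on any. Endothelial markers numbered 4, with 3 detected for valproate, 1 for DMSO and 2 for lamotrigine, and Cldn5 for none. The RNA thus held transcripts of several cell types, and in such RNA fewer cells of a type and less RNA per cell cannot be told apart.

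The alpha subunits are closely related proteins, so the probe sequence decides which of them a spot reports. The 6 alpha probes that lie before position 6000 of their listed transcript, with a reading frame free of stop codons, are shown as designed, each 60 bases long. None of these 6 is the probe that gives the level of its gene below, and the Scn8a probe at position 3835 was not detected on any array. Capitals mark the longest run of letters shared with a probe of another of the 8 subunits.
Scn1a, position 599: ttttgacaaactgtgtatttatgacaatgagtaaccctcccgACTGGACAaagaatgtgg
Scn2a1, position 888: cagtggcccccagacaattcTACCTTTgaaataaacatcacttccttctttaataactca
Scn3a, position 1657: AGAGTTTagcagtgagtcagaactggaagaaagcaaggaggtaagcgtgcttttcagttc
Scn3a, position 2983: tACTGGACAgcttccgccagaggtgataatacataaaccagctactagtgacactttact
Scn8a, position 263: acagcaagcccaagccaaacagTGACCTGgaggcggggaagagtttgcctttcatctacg
Scn8a, position 3835: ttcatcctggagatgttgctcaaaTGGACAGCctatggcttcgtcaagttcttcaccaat
Over all 119 pairs of probes for different subunits, the longest shared run was 8 bases. Binding of a probe to the transcript of another subunit was not tested, because transcript sequences were not used here.

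On the mm9 build the probes of Scn1a, Scn2a1, Scn3a and Scn9a lie on chromosome 2, those of Scn8a on chromosome 15 and those of the 3 beta subunits on chromosome 9. The probe that represents each gene is the one with the highest mean level. For Scn3a it is at chr2:65296320-65296379 on the minus strand, for Scn2a1 at chr2:65605429-65605488 on the plus strand and for Scn1a at chr2:66111022-66111081 on the minus strand. The single Scn9a probe is at chr2:66321218-66321277 on the minus strand. The Scn8a probe is at chr15:100875702-100875761 on the plus strand. The beta subunit probes are at chr9:40098873-40098932 for Scn3b, chr9:44937945-44938004 for Scn2b and chr9:44962045-44962104 for Scn4b, all on the plus strand. Every probe is assigned by the array's design to a transcript of its gene. Whether a probe lies in coding or untranslated sequence was not determined, since an mm9 annotation was not used here.

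**Figure D1:**
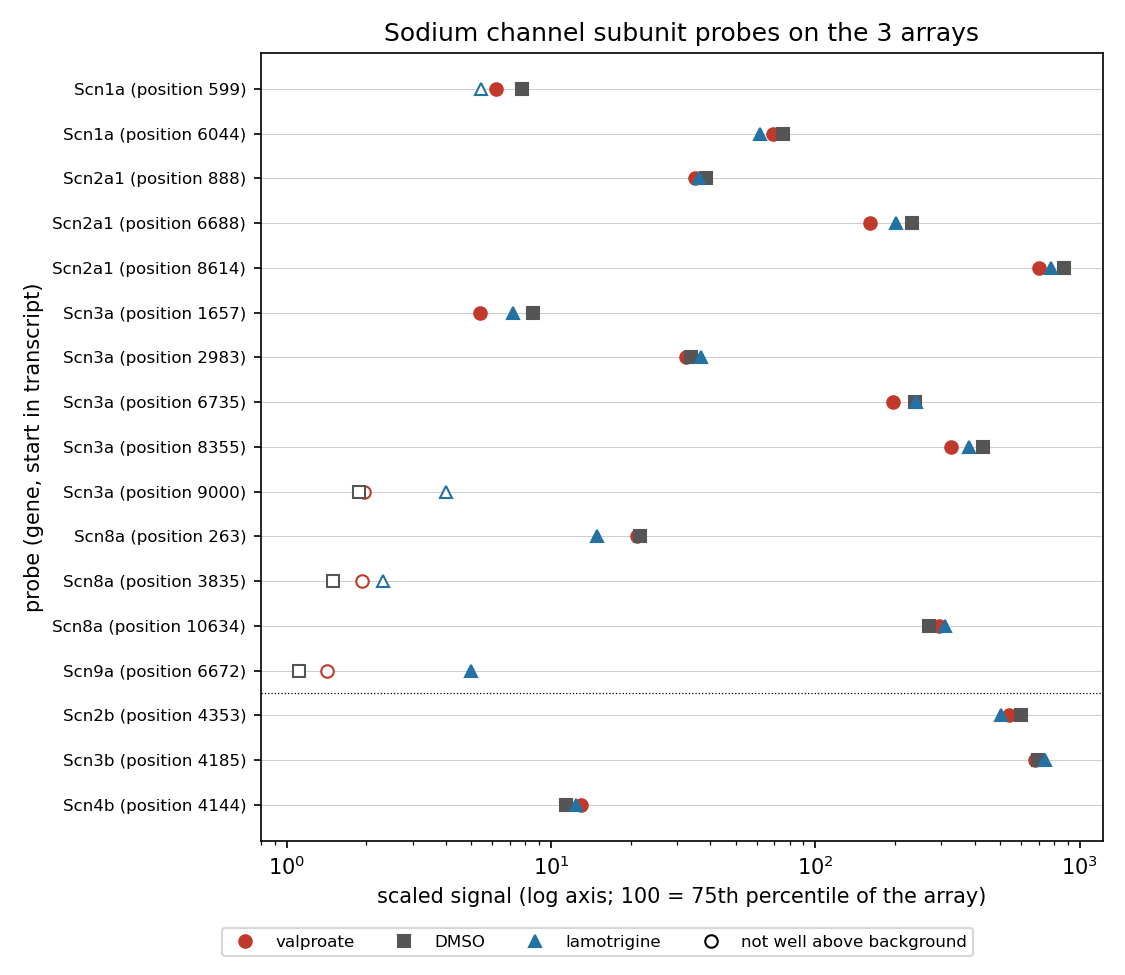
Scaled signal of the 17 sodium channel subunit probes (rows, with the start of the probe in its transcript) on the valproate, DMSO and lamotrigine arrays, on a log axis; open symbols were not well above background. The 3 arrays lie close together for nearly every detected probe, and Scn9a was detected with lamotrigine only, at 5.00.

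No subunit was shown to be 2-fold apart between any pair of treatments. Scn9a, known only as a bound where it was measured, could lie beyond that. With valproate against DMSO this was 0 of 7 measured genes, where 4.35% of 15255 genes were 2-fold apart. With lamotrigine against DMSO it was 0 of 8, against 0.407% of 14987 genes, and between the drugs 0 of 8, against 4.83% of 15372 genes. At 1.5-fold the count was also 0 in each comparison, where 13.9%, 3.11% and 14.0% of genes were that far apart. The differences that stood furthest outside the spot error were the lower levels of Scn2a1 and Scn3a with valproate. With spike-in scaling the representing Scn2a1 probe turned higher (0.03), while the Scn2a1 probe printed 10 times stayed lower (-0.17). These counts include differences known only as bounds, in which a gene was detected on 1 array of the pair and the other was placed at its floor or at its own signal, whichever was higher. The floor of an array, the lowest level of a probe well above background, was 3.88 for valproate, 5.29 for DMSO and 4.63 for lamotrigine.

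The error given with each difference is technical. It comes from 399 probes printed 10 times on each array and leaves out the spread between cultures, RNA extractions and labelling reactions. For 1 spot of a dim probe, with a scaled signal under 25, the SD was 0.17 to 0.18 log2, and for a bright probe, over 400, it was 0.04 to 0.05. The technical SD of a difference combines the SDs of 1 spot on both arrays and is thus larger. Brightness depends on the probe, so levels are compared between arrays for 1 probe and never between probes.

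Scn3a, an alpha subunit most abundant in the embryonic and newborn brain, had the largest difference from DMSO among the representing probes of the subunits. Its level was 325 with valproate, 429 with DMSO and 380 with lamotrigine. The DMSO array was thus the highest and the valproate array the lowest. Valproate was at a log2 difference of -0.40 (technical SD 0.07), or 1.32-fold lower, and 13.2% of all genes detected on both arrays were lower still. Lamotrigine was at -0.17 (technical SD 0.08), which turned to 0.03 with spike-in scaling, while the valproate difference stayed below 0 under every alternative (-0.40 to -0.05).

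Of the other Scn3a probes, 3 were detected on all arrays. The probe at position 6735 read 196 with valproate, 239 with DMSO and 240 with lamotrigine. Only valproate stood apart on that probe, at -0.29 (technical SD 0.08), with lamotrigine at 0.00 from DMSO; with spike-in scaling the values were 0.06 and 0.21. The probe at position 2983 read 32.3, 33.8 and 37.0 in the same order, and its valproate difference of -0.07 was within the technical SD of 0.11. The probe at position 1657 was dim, at 5.40, 8.56 and 7.18, and gave -0.67 (technical SD 0.24) with valproate. On the minus strand it lies at chr2:65332960-65333019, downstream of the probe at position 2983 (chr2:65346334-65346393). These positions are thus not counted along the same transcript. All 4 measured Scn3a probes were thus lower with valproate, over a range of 0.60 log2 that exceeds the spot error, but with spike-in scaling those at positions 6735 and 2983 turned above 0 (0.06 and 0.28). With lamotrigine 2 of the 4 were lower and 2 higher. The fifth probe, at position 9000, was not well above background on any array.

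Scn2a1 encodes the main alpha subunit of excitatory neurons and their axon initial segments early in life. One of its probes (chr2:65603503-65603562, plus strand, position 6688 of the transcript) was printed 10 times, which makes it the best measured subunit probe on the array. Its spots had a mean of 163 ± 9.64 with valproate (SD, n = 10 spots of 1 array), 232 ± 9.86 with DMSO and 201 ± 8.12 with lamotrigine. The valproate spots ranged from 146 to 177, the DMSO spots from 208 to 243 and the lamotrigine spots from 193 to 217. The valproate spots overlapped with neither of the other arrays, while the lamotrigine and DMSO spots overlapped. The log2 difference from DMSO was -0.52 (technical SE 0.03) with valproate and -0.20 (technical SE 0.03) with lamotrigine, and with spike-in scaling -0.17 and -0.00.

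The spots before scaling show how much of this rests on the scaling. The mean intensity was 777 ± 46.1 with valproate (SD, n = 10 spots), 862 ± 36.7 with DMSO and 780 ± 31.5 with lamotrigine. Unscaled, the valproate spots (698 to 847) overlapped with the DMSO spots (776 to 905).

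**Figure D2:**
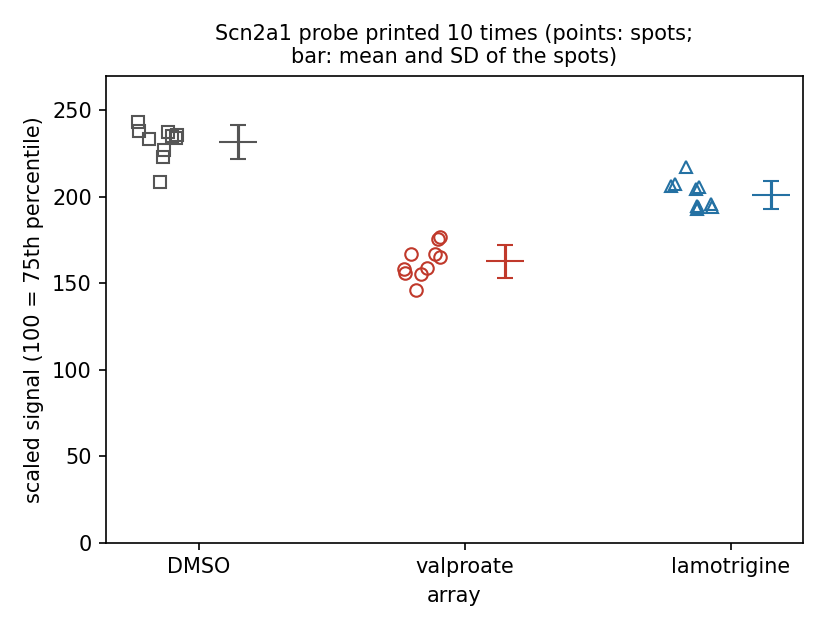
Scaled signal of the 10 spots of 1 Scn2a1 probe on each array (open symbols), with the mean and SD of the spots beside them. The valproate spots (146 to 177) lie below all DMSO spots (208 to 243); the spots are repeats within 1 array and not replicate cultures.

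The other Scn2a1 probes were lower with valproate too. The brightest, at position 8614, read 700 with valproate, 874 with DMSO and 782 with lamotrigine. It put valproate at -0.32 (technical SD 0.06) and lamotrigine at -0.16 (technical SD 0.07) from DMSO, and spike-in scaling turned both to values above 0 (0.03 and 0.04). The probe at position 888 read 34.9, 38.5 and 36.2 in the same order, and its differences of -0.14 and -0.09 were near or within the technical SD (0.11 and 0.12). All 3 probes therefore placed DMSO highest and valproate lowest, but with spike-in scaling DMSO was the lowest on the probes at positions 8614 and 888, the latter at 0.21 with valproate and 0.11 with lamotrigine. Under the 75th percentile scaling the size of the valproate difference ranged over 0.38 log2 from probe to probe.

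Scn1a is the alpha subunit most associated with fast-spiking inhibitory neurons, and its loss of function causes a severe childhood epilepsy in humans. Its brighter probe read 69.0 with valproate, 75.2 with DMSO and 61.8 with lamotrigine, so here lamotrigine was the lowest. Lamotrigine was at -0.28 (technical SD 0.12) from DMSO and only 7.97% of genes were lower. Valproate was at -0.12 (technical SD 0.11), and at 0.23 with spike-in scaling. The other probe, at position 599, read 6.17 with valproate and 7.77 with DMSO and was not well above background with lamotrigine, which left a bound of -0.51 from its own signal there.

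Scn8a, the alpha subunit of mature axon initial segments and nodes of Ranvier, was the measured alpha subunit whose representing probe was higher with both drugs. That probe read 294 with valproate, 270 with DMSO and 310 with lamotrigine. Valproate was at 0.12 (technical SD 0.08) and lamotrigine at 0.20 (technical SD 0.09), with 88.3% of genes lower than Scn8a in the lamotrigine comparison. Its probe at position 263 went the other way with lamotrigine: 21.1 with valproate, 21.6 with DMSO and 14.9 with lamotrigine, or -0.54 (technical SD 0.25) for lamotrigine. The probes of Scn8a thus disagree by 0.74 log2 on lamotrigine, and the gene has no settled direction there. The probe at position 3835 was not well above background on any array.

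Scn9a, an alpha subunit best known from pain-sensing neurons, was near the limit of detection. Its single probe read 1.43 with valproate and 1.11 with DMSO, both not well above background, and 5.00 with lamotrigine, where it was detected. Against the DMSO floor of 5.29 the lamotrigine level gives a bound of 0.00. Against the valproate floor it gives at least 1.29-fold higher with lamotrigine on this scale, or -0.36 for valproate minus lamotrigine. That bound was -0.21 with quantile normalization and in the authors' deposited table, -0.22 with spike-in scaling and -0.45 with normexp correction. It rests on 1 spot per array.

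The beta subunits were detected on all 3 arrays with 1 probe each. Scn2b, which links covalently to alpha subunits and helps bring channels to the surface, read 542 with valproate, 600 with DMSO and 505 with lamotrigine. Both drugs were below DMSO, by -0.15 (technical SD 0.06) for valproate and -0.25 (technical SD 0.07) for lamotrigine, with 10.9% of genes lower in the latter; with spike-in scaling valproate was at 0.20. Scn3b, a non-covalent partner, read 678, 693 and 738 in the same order. Its differences of -0.03 and 0.09 were within 2 technical SDs, and the former turned above 0 with spike-in scaling, quantile normalization, normexp correction and the authors' deposited table. Scn4b, the subunit linked to resurgent sodium current, read 13.0, 11.4 and 12.4, and its differences of 0.19 and 0.13 were within the technical SD of 0.24 and 0.25, the former turning to -0.06 with normexp correction. The beta subunits therefore showed 1 difference beyond 2 technical SDs in each comparison with DMSO, that of Scn2b.

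**Figure D3:**
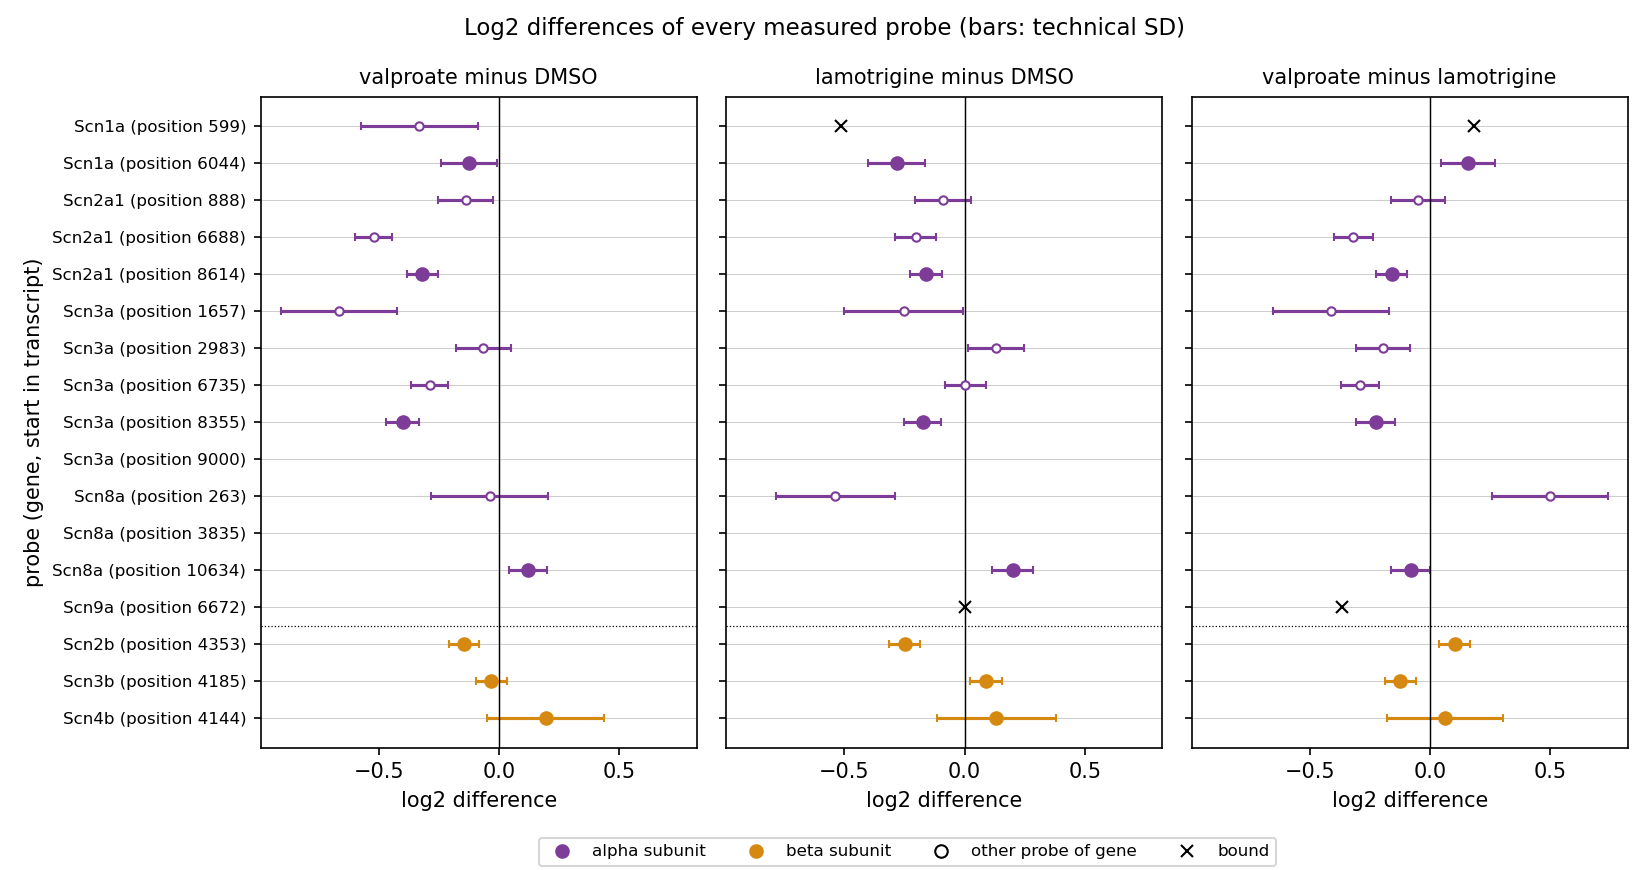
Log2 difference of each measured subunit probe for the 3 comparisons, alpha subunits above the dotted line and beta subunits below. Bars are the technical SD of the difference between single spots on both arrays, filled symbols are the probe that represents the gene and crosses are bounds. With valproate against DMSO 10 of 11 alpha probes lie below 0; with lamotrigine against DMSO 7 of 10 do, and spike-in scaling leaves 3 of 14 and 5 of 13 probes of all subunits below 0.

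As groups, the alpha subunits had a median log2 difference of -0.22 over 4 measured genes with valproate and the beta subunits -0.03 over 3, a gap of -0.19 that became -0.09 without the detection filter. With lamotrigine the medians were -0.16 over 5 alpha genes, Scn9a at its bound included, and 0.09 over 3 beta genes, a gap of -0.25 that became -0.15 with quantile normalization and with the authors' deposited table. Between valproate and lamotrigine they were -0.16 and 0.06, a gap of -0.22 that became -0.01 with normexp correction, where the medians were -0.09 and -0.08. These comparisons share arrays and are not independent of each other. The groups overlapped in every comparison: Scn8a lay above Scn2b and Scn3b with valproate, and Scn2b lay below Scn2a1 and Scn3a with lamotrigine. A gap between groups of 3 to 5 genes on 1 array per treatment was not tested.

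Over all 8 subunits the median was -0.12 with valproate (7 measured, 5 below 0), against -0.07 over all genes. With quantile normalization and with the authors' deposited table it was -0.06 (4 below 0), against -0.01 over all genes detected on both arrays. With lamotrigine the subunit median was -0.08 (8 measured, 4 below 0), against -0.04 over all genes. It was -0.16 without Scn9a, which stands at its bound. With quantile normalization it was -0.04, against 0.00 over all genes detected on both arrays. With spike-in scaling the subunit medians were 0.23 with valproate and 0.081 with lamotrigine, against 0.27 and 0.16 over those genes. Counted by probe, 12 of 14 were below 0 with valproate and 8 of 13 with lamotrigine, where 59.9% and 58.7% of all gene probes were. Of these probes, 6 of 14 with valproate and 7 of 13 with lamotrigine lay beyond 2 technical SDs from 0, where 52.9% of 19607 and 29.2% of 19583 gene probes did. The valproate share of the subunit probes was no higher than that of all gene probes, while the lamotrigine share was higher. Several of these probes belong to the same genes, and the difference in shares was not tested.

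Set directly against each other, the drugs gave only a bound for Scn9a, -0.36 for valproate minus lamotrigine, which was not ranked with the other subunits. It is the gap from a lamotrigine level of 5.00, near the floor of 4.63 on that array, to the valproate floor of 3.88. By the representing probes of the genes detected on both arrays, Scn3a was farthest from 0, at -0.23 (technical SD 0.08). All 4 measured Scn3a probes were below 0, also with spike-in scaling. Scn2a1 was at -0.16 (technical SD 0.06), with all 3 probes below 0, of which the probe at position 888 turned above 0 with spike-in scaling. Scn1a at 0.16 (technical SD 0.11) and Scn2b at 0.10 (technical SD 0.06) were on the other side. Scn3b, at -0.12 (technical SD 0.06), turned to 0.02 with spike-in scaling. The representing probe of Scn8a, at -0.08, was within 1 technical SD and above 0 with spike-in scaling. The dim Scn8a probe at position 263 was at 0.50 (technical SD 0.24), and at 0.65 with spike-in scaling. The probes of Scn8a thus disagree between the drugs too.

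The direction of these small differences depends on the scaling. With spike-in scaling Scn3a was at -0.05 with valproate, Scn2a1 at 0.03, Scn1a at 0.23, Scn2b at 0.20 and Scn8a at 0.47, and 3 of 14 probes remained below 0. With lamotrigine, Scn1a was at -0.08 and Scn2b at -0.05, while Scn2a1 (0.04) and Scn3a (0.03) lay above 0. Quantile normalization, centring on the detected probes, normexp background correction and the authors' deposited table left Scn1a, Scn2a1, Scn3a and Scn2b below DMSO with both drugs. The order of the subunits relative to all genes is not affected by an equal shift, and Scn3a and Scn2a1 were the lowest subunits with valproate on each of these scales.

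**Figure D4:**
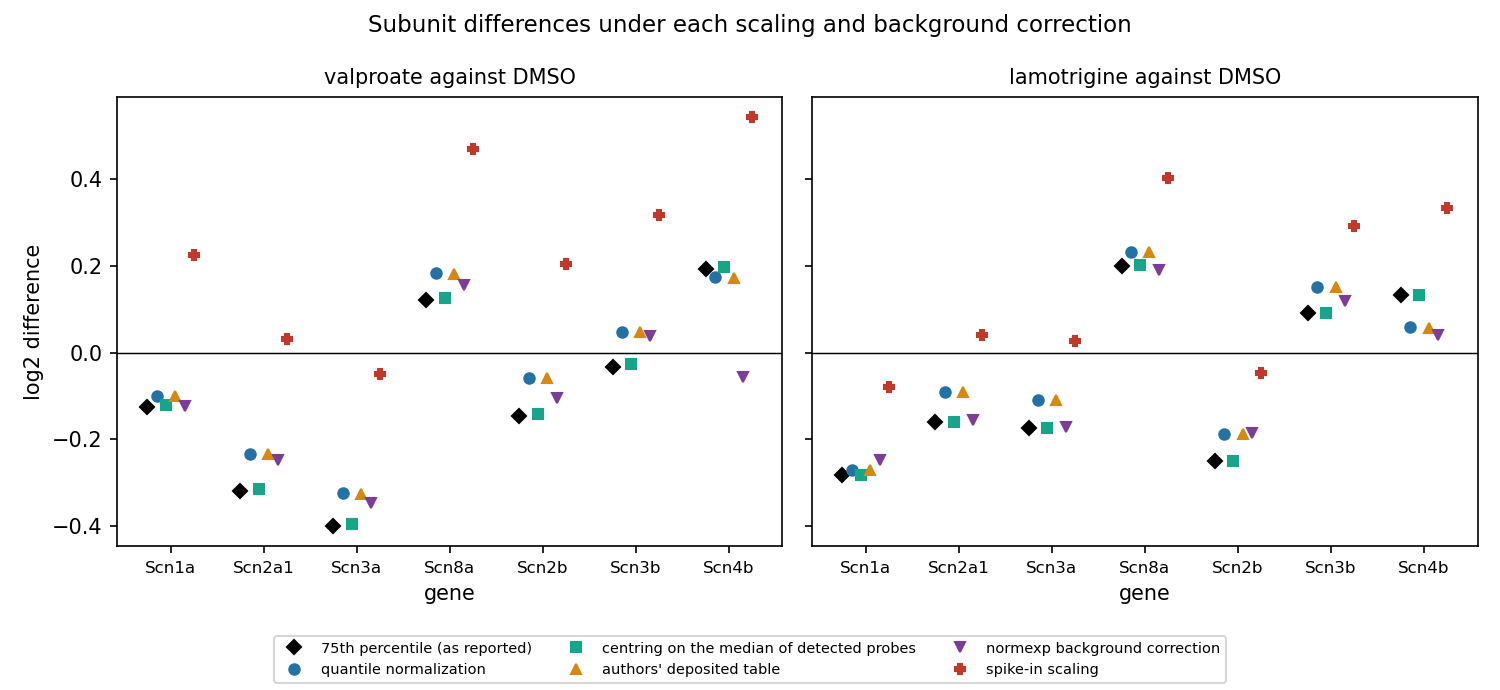
Log2 difference from DMSO of the 7 subunits detected on all arrays, under the 75th percentile scaling and 5 alternatives (symbols), for valproate (left) and lamotrigine (right). Spike-in scaling moves each gene upwards, so that Scn2a1 with valproate goes from -0.32 to 0.03, while the order of the subunits changes little.

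Sodium channels work within a larger set of proteins at the axon initial segment, where ankyrin and spectrin anchor them and cell adhesion molecules hold the scaffold. The 33 other genes examined were further sodium channel genes, intracellular fibroblast growth factor homologues, scaffold and adhesion genes, trafficking genes, potassium channels of the initial segment and regulators of sodium channel transcripts. With valproate, 30 were measured, 24 below 0 and 6 above, 0 were 2-fold apart (4.35% of all genes) and the median was -0.17. With lamotrigine, 30 were measured, 24 below 0, 0 were 2-fold apart (0.407% of all genes) and the median was -0.13. Over all genes, bounds included, the medians were -0.07 and -0.04. Of the genes detected on both arrays 60.7% and 60.2% were below 0, and the counts by role are to be read against these shares. Of the 30, 19 were below 0 with either drug under quantile normalization and in the authors' deposited table. The shares of all genes given above were not taken on these scales and are no measure for that count. With quantile normalization the medians of the 30 were -0.10 with valproate and -0.08 with lamotrigine. Those of all genes detected on both arrays were then -0.01 and 0.00. With spike-in scaling both medians of the 30 lie above 0.

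The sodium channel gene Scn11a, known from sensory neurons, read 17.4 with valproate, 9.73 with DMSO and 7.51 with lamotrigine. It was 0.84 above DMSO with valproate. Between the drugs it was 2.32-fold higher with valproate, the one gene of this set at least 2-fold apart in any comparison. Its level was low on all arrays, and with normexp correction these differences were 0.17 and 0.50. Scn7a and Scn10a were not detected on any array.

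Rest encodes the repressor that silences neuronal genes, type II sodium channels among its classical targets, outside neurons. Its level was 134 with valproate, 87.0 with DMSO and 90.6 with lamotrigine. Rest was thus 0.62 above DMSO with valproate and 0.06 with lamotrigine, and 0.56 higher with valproate than with lamotrigine. Over the scalings and background corrections tried, its valproate difference ranged from 0.53 to 0.97.

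The scaffold and adhesion genes of the initial segment were lower with valproate in 7 of 8 measured cases (median -0.36), and with lamotrigine in 7 of 7 (median -0.16). With spike-in scaling 4 of 8 were below 0 with valproate (median -0.01) and 1 of 7 with lamotrigine (median 0.04). The medians of all genes detected on both arrays were 0.27 and 0.16 with that scaling, beside which all spike-in counts here stand. Nrcam, an adhesion molecule that binds neurofascin, read 2285 with valproate, 3448 with DMSO and 2851 with lamotrigine, or -0.59 and -0.27 from DMSO, and both stayed below 0 with spike-in scaling (-0.24 and -0.07). Tnr, an extracellular matrix protein that binds beta subunits, read 23.5, 33.7 and 30.2, or -0.52 and -0.16, the latter turning to 0.04 with spike-in scaling. The potassium channels of the initial segment were below DMSO in 4 of 4 cases with each drug, with medians of -0.25 and -0.31; spike-in scaling left 1 of 4 and 3 of 4 below. The intracellular fibroblast growth factor homologues were below 0 in 3 of 3 measured cases with valproate and 3 of 4 with lamotrigine, but 0 of 3 and 1 of 4 with spike-in scaling. The trafficking genes (median -0.08 over 6 with valproate and -0.05 with lamotrigine) and the regulators (-0.00 over 5 and -0.06) lay near the median of all genes.

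**Figure D5:**
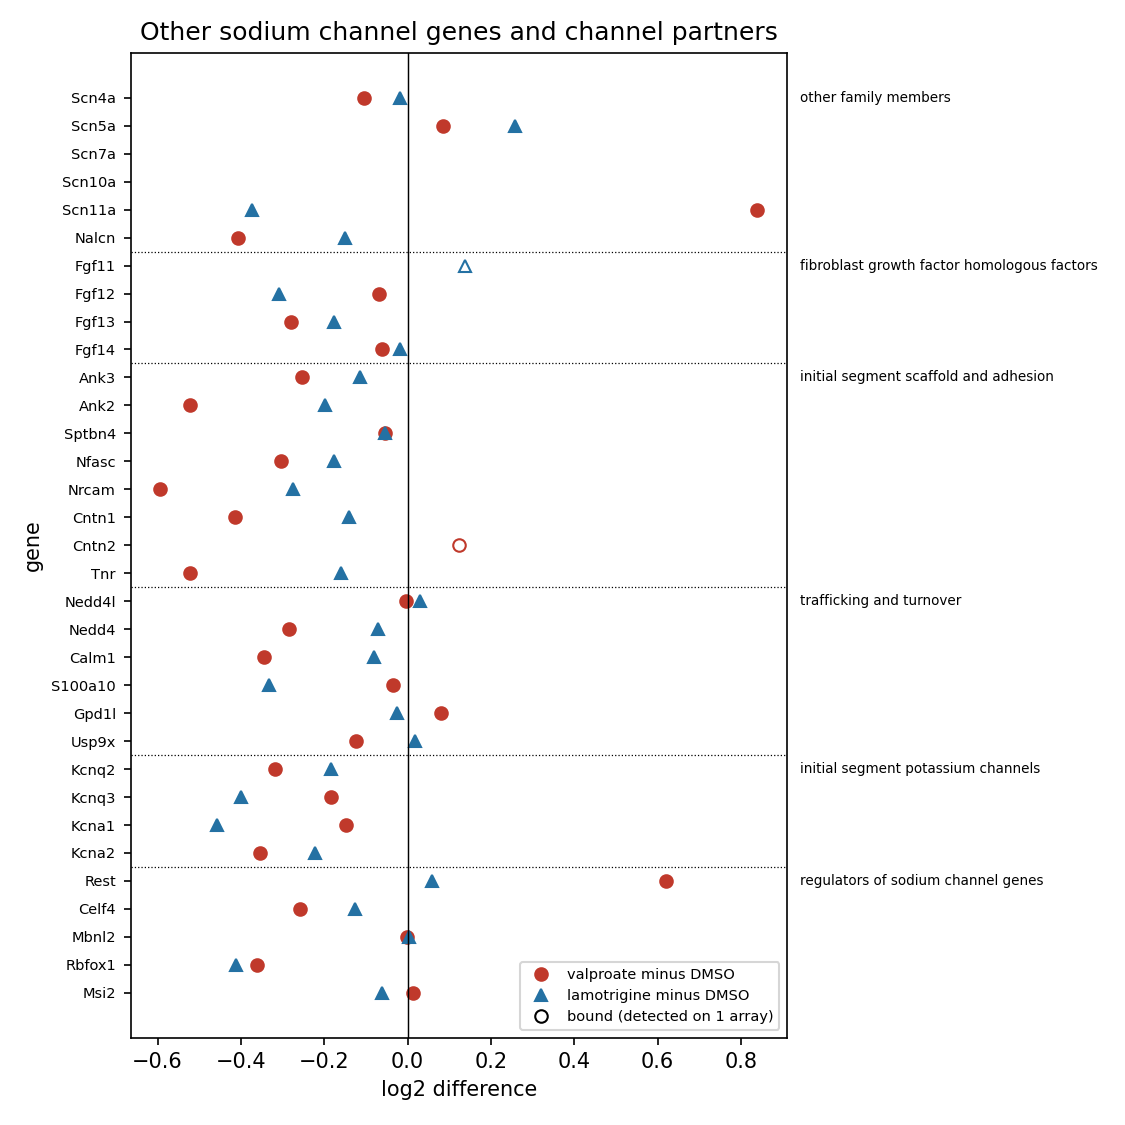
Log2 difference from DMSO of the 33 other sodium channel and channel partner genes, grouped by role, for valproate (circles) and lamotrigine (triangles); open symbols are bounds. Most points lie left of 0, though with spike-in scaling 7 of 30 do for valproate and 8 of 30 for lamotrigine, with Scn11a (0.84) and Rest (0.62) farthest to the right with valproate.

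Neuron markers did not all follow 1 order of arrays. The summed level of the 13 was 27830 with valproate, 36160 with DMSO and 31790 with lamotrigine, the same order as Scn2a1 and Scn3a, and bright probes such as those of Stmn2 and Tubb3 weigh most in it. Snap25, Nefl, Nefm and Eno2 were highest with valproate and Elavl4 with lamotrigine. Of the 13, 9 were below 0 with valproate (median -0.30) and 11 with lamotrigine (median -0.22). Over all genes detected on both arrays 60.7% were below 0 with valproate and 60.2% with lamotrigine. With spike-in scaling 6 and 7 of the 13 were below 0. Their medians were then 0.05 and -0.02, against 0.27 and 0.16 over all genes detected on both arrays. The summed level of the 9 inhibitory neuron markers was 8732, 9803 and 8042, and that of the 6 excitatory neuron markers 1750, 2015 and 1902. Slc32a1 weighs most in the former sum and Tbr1 in the latter. By median the inhibitory markers were at -0.13 with valproate and -0.07 with lamotrigine, and the excitatory markers at -0.04 and -0.08. The part of neuron number or of overall neuronal RNA in the subunit differences was not tested. Astrocyte markers summed to 21930 with valproate, 42040 with DMSO and 41330 with lamotrigine, and Aldoc alone carried most of the difference. Of the 9 markers 8 were below 0 with valproate (median -0.47, and 7 below with spike-in scaling), Aqp4 and Aldoc by over 2-fold, while Gfap and Fgfr3 were near 0 (0.06 and -0.01). Their part in the subunit differences was not tested. Fibroblast markers summed to 6153, 8149 and 7253, and oligodendrocyte lineage markers to 4155, 4630 and 4124, in the same order of arrays. Olig1 alone made up most of the latter sum. Of the 10 oligodendrocyte lineage markers 7 were below 0 with valproate (median -0.47, and 6 below with spike-in scaling). Gpr17, at 18.6 with valproate and 251 with DMSO, and Mag, as a bound, were lower by over 2-fold. With lamotrigine 9 of the 10 were below 0 (median -0.18, and 4 below with spike-in scaling).

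By the pattern over the 3 arrays, the genes most like Scn3a were Celf5, Sprn and Sec14l2, within a distance of 0.0050 log2 after each gene was centred on its own mean. Those most like Scn4b, the beta subunit farthest from DMSO with valproate, were Fzd4, Slc11a2 and Reck. With 3 arrays such likeness is common: 289 of 14242 other genes lay within 0.05 of Scn3a and 209 within 0.05 of Scn4b.

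Promoter sequences of RefSeq (GRCm38.p6) were present for 6 of the 8 genes, with 8 start sites from 250 bases before to 50 after each start. Their GC content ran from 33.0% at one Scn2a1 start to 70.0% at one Scn8a start, against a median of 52.7% over 32851 promoters. The Scn4b promoter (66.3% GC, 26 CpG pairs) and that Scn8a start (38 CpG pairs) were CpG-rich, while the Scn2b promoter (38.3% GC, 2 CpG pairs) and the Scn1a promoter (47.3%, 5 CpG pairs) were not.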

How the data were processed

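Per the labels, total RNA was labelled with Cy3 (1 colour). Per the file headers, spot intensity was read with Feature Extraction 10.7.1.1, and the processed signal is background-subtracted and detrended within each array. The authors deposited these intensity files and a table of intensity values, quantile-normalized per its name; other software is not given in the sources used here. Each array held 59305 non-control spots, 0 of them saturated.

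Levels were computed as log2 of the processed signal minus that of the 75th percentile, without outlier spots, with spots of 1 probe averaged. A probe was detected if most of its spots were well above background. Gene names came by RefSeq accession, symbol or older symbol (31381 of 55681), and the probe with the highest mean level represented a gene. Members were named and gene lists set with earlier results of these data known. Genes at least 2-fold apart were counted. Among the other channel genes, the 4 farthest from DMSO with valproate and any 2-fold apart were named, and 1 gene of those lists is not reported here. Alternatives were other scalings (spike-in scaling used 6 of 10 spike-in probes), normexp with offset 50 (limma 3.58.1, R 4.3.3), the deposited table, detection filters, probe averaging, outliers and thresholds. The steps were tested on simulated data (Python 3.11.15).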

Additional observations from a re-analysis of the deposited data

How the results depend on the processing

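The count of subunits at least 2-fold apart stayed at 0 in all 3 comparisons under every alternative with a detection filter, including thresholds of 1.5-fold and 3-fold. Without the filter it was 1 for lamotrigine against DMSO and 1 for valproate against lamotrigine, in both cases Scn9a (2.17 and -1.81 log2 at levels near background). With spike-in scaling the median of the subunits was 0.23 for valproate against DMSO, 0.081 for lamotrigine against DMSO and 0.046 for valproate against lamotrigine, and that of the channel partner genes 0.18, 0.068 and 0.043. The median of all genes detected on both arrays was then 0.27, 0.16 and 0.12. The lamotrigine median of the subunits was -0.16 when detection on all 3 arrays was required, which leaves out Scn9a. The alpha minus beta gap was -0.093 for valproate against DMSO without the filter, which adds Scn9a, -0.15 for lamotrigine against DMSO with quantile normalization and -0.15 with the authors' deposited table, and -0.011 between the drugs with normexp correction; the cause of the last 3 was not tested. Of 21 single-gene differences, 8 changed sign with spike-in scaling, 3 with normexp correction, 2 with the mean of detected probes and 1 each with quantile normalization and the deposited table. No paired analysis was possible because each treatment had 1 array. Signal over background limits Scn4b, Scn9a and the dim probes of Scn1a, Scn3a and Scn8a.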
